A study of Mus musculus with 48 samples.

Results

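The cytosolic ribosomal protein genes encode the proteins of the large (Rpl) and small (Rps) subunits of the ribosome that works in the cytoplasm. They were taken as the rows whose symbol starts with Rpl or Rps followed by a number, with the letters and digits that mark isoforms and paralogues, plus Rplp0, Rplp1, Rplp2 and Rpsa. Symbols marked as pseudogenes (-ps) were left out. This gave 89 of the 20171 genes in the table, 53 of the large and 36 of the small subunit. Among them the reference annotation lists Rpl6l, Rps12l1, Rps3a2 and Rps3a3 as pseudogenes and Rps4l as a transcribed pseudogene. These were kept, since their symbols do not mark it.

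RNA was sequenced from lysates (inputs) and from the RNA that HA antibody beads recovered from those lysates (immunoprecipitates, IPs) of mouse embryonic stem cells of the 129S6/SvEvTac background. All cells carry the yGlob reporter GFP_5xT71BS and a stable FLAG-Cas9::T2A::Blasticidin transgene. The 4 genotypes were untagged cells, HA-AVI-Tnrc6a cells, HA-AVI-Tnrc6a Ago2-/- cells and HA-AVI-Tnrc6a Upf1-/- cells, so that both knockouts carry the tag as well. Each genotype and fraction had 6 libraries from dishes grown in triplicate in 2 experiments, and the labels do not say how many clones stand behind a genotype, so p-values measure the spread between these dishes. The comparisons ask which RNAs come down with Tnrc6a, and whether this differs without Ago2 or Upf1.

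Library totals ranged from 11471544 to 73845953 counts, and libraries numbered 1 to 3 in the column headers did not overlap in total with those numbered 4 to 6. The headers do not state which of these 2 sets is which experiment, so they are named here by their numbers. Input levels of 8 embryonic stem cell markers lay between 348 CPM (counts scaled to a common library total with TMM factors) for Klf4 and 1888 CPM for Pou5f1, while the 10 markers of other cell types in the table stayed at 33.5 CPM or less, and 1 of them, Col1a2, was at 0 in its lowest library. In the check of the labels, Tnrc6a was 7.77 log2 units better recovered from HA-Tnrc6a than from untagged cells. Ago2 mRNA was 1.21 log2 units lower in Ago2-/- than in HA-Tnrc6a inputs (log2 difference -1.21 ± 0.03, SE). Upf1 mRNA was not lower in the inputs labelled Upf1-/- but higher (0.58 ± 0.03, SE), with 122 to 142 CPM against 74.4 to 99.6 CPM in HA-Tnrc6a inputs. The mRNA level therefore gives no check of that label, and these are called the cells labelled Upf1-/-.

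Ribosomal proteins assemble with ribosomal RNA in the nucleolus, and their mRNAs are among the most abundant and most translated in dividing cells. Many of these mRNAs begin with a C and a run of pyrimidines, the 5′ terminal oligopyrimidine (TOP) tract, through which their translation follows growth signals. Tnrc6a is a GW182 protein that binds Argonaute proteins such as Ago2 and recruits deadenylases to microRNA targets, and Upf1 is the helicase of nonsense-mediated mRNA decay. Several ribosomal proteins, Rpl3, Rpl10a and Rpl12 among them, are known to control their own level by splicing that feeds this decay pathway.

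RefSeq start-site sequences (GRCm38.p6, the build family that the submitters' processing notes name) were found for 64 of the 89 members. Those of members that carry the results below are printed to show the start of the mRNA, each 30 bases long, from 10 bases before the annotated start to the 20 bases from it. They run 5′ to 3′ on the gene's strand, and capitals mark the longest run of C and T where it is 8 bases or more. Rps27 and Rpl7l1 are shown because they were the 2 members recovered better with the tag, Rps25, Rpl22l1 and Rpl12 because they were among the 6 with the lowest recovery, Rpl35 for its low recovery from Ago2-/- cells and Rplp2 as a stalk protein.
Rps27: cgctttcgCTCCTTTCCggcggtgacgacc
Rpl7l1: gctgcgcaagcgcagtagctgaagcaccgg
Rps25: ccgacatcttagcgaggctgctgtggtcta
Rpl22l1: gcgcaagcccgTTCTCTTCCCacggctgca
Rpl12: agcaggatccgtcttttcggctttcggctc
Rpl35: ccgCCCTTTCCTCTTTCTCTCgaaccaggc
Rplp2: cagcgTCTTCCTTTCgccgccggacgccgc
The windows lie at chr3:90213629-90213658 (minus strand) for Rps27, chr17:46782637-46782666 (minus) for Rpl7l1, chr9:44407704-44407733 (plus) for Rps25 and chr3:28805498-28805527 (plus) for Rpl22l1. Those of Rpl12, Rpl35 and Rplp2 lie at chr2:32961702-32961731 (plus), chr2:39005112-39005141 (minus) and chr7:141447641-141447670 (plus). Rps27 has a run of 9 pyrimidines across its annotated start and Rpl7l1 has none longer than 2, although both were recovered better with the tag.

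A run of at least 8 C or T on the gene's strand in this window was present in 25 of the 64 members (39.1%), against 13% of the 27025 genes with an entry. On the opposite strand it was present in 3 members (4.69%) and in 15.4% of all genes. Any annotated start of a gene was allowed to count, and such a run is a description of the letters, not a mapped TOP tract. In the recovery with HA-Tnrc6a described below, the 25 members with a run had a median of -0.92 log2 units and the 39 without a median of -0.88. The difference between these medians was not tested.

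The ribosomal protein genes held a large part of the input reads and a much smaller part of the reads recovered through the tag. They took 7.05 to 10.1% of the counts (median 7.92%) in untagged inputs and 6.65 to 9.16% (median 7.40%) in untagged IPs. In HA-Tnrc6a cells they took 6.67 to 8.91% (median 7.67%) of the inputs and 2.91 to 4.96% (median 3.54%) of the IPs. In Ago2-/- cells the shares were 6.56 to 8.76% in inputs and 2.36 to 4.43% in IPs, and in cells labelled Upf1-/- they were 5.98 to 7.53% in inputs and 2.26 to 3.83% in IPs. The 18 tagged IPs all lay below every input and every untagged IP, as the plot of shares by library shows. Libraries 1 to 3 had the higher shares in every group. All values are shares of a library, and the absolute amount of RNA on the beads was not measured.

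**Figure D1:**
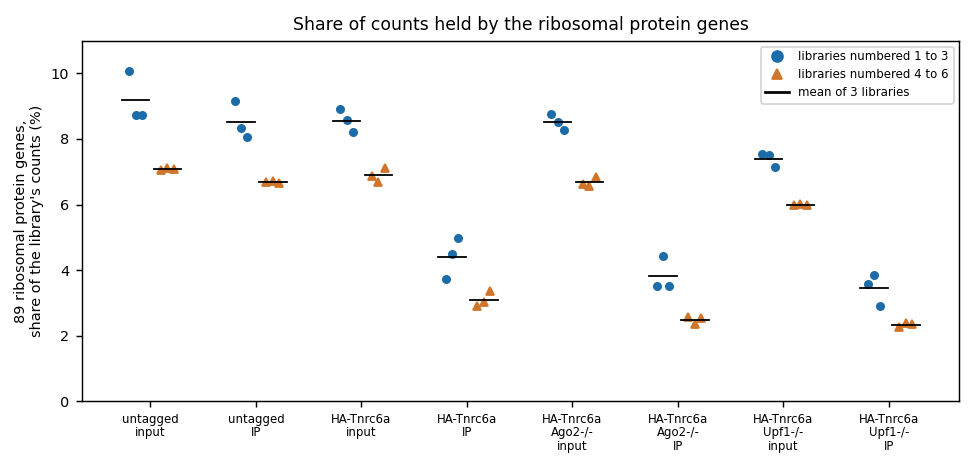
Share of each library's counts held by the 89 ribosomal protein genes (vertical axis, percent), by genotype and fraction. Points are libraries, marked by number, and bars are means of 3 libraries. Tagged IPs lie at 2.26 to 4.96% and untagged IPs at 6.65 to 9.16%.

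The untagged cells give what the beads hold without a tag. There, the ribosomal protein mRNAs as a group were near their input level, but single members differed: 19 members were higher and 30 lower in the IP than in the input at an adjusted p under 0.05 (edgeR), against 18% and 17.8% of all 19299 genes tested. The median of the members was -0.08 log2 units, beside -0.03 for all genes. With library totals in place of TMM scaling, 15 were higher and 57 lower, against 10.3% and 39.2% of all genes, and the median of all genes moved to -0.20. Without replicate number 1 in both fractions, 33 were higher and 40 lower, against 19.6% and 19.8% of all genes.

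Rps27l, a p53-inducible paralogue of Rps27, was the member most enriched on untagged beads. It had 170 to 221 CPM (median 185) in the inputs and 239 to 608 CPM (median 404) in the IPs, with no overlap, and its log2 difference was 1.04 ± 0.06 (SE, adjusted p = 1.39e-10). The large subunit genes Rpl4 (0.71 ± 0.04), Rpl14 (0.64 ± 0.05) and Rpl17 (0.54 ± 0.05) and the small subunit genes Rps25 (0.61 ± 0.05) and Rps3 (0.54 ± 0.05) were also higher in untagged IPs. Rps3 sits at the mRNA entry of the ribosome and also takes part in DNA repair.

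At the other end, Rps29 was lower in untagged IPs (-0.50 ± 0.07), as were Rpl39l (-0.49 ± 0.07), the acidic stalk protein Rplp1 (-0.46 ± 0.08), Rps16 (-0.45 ± 0.07), Rps19 (-0.44 ± 0.06), which is mutated in Diamond-Blackfan anaemia, and Rps7 (-0.42 ± 0.05). Of the 3 members known for decay-coupled splicing, Rpl3 (0.42 ± 0.04) and Rpl12 (0.35 ± 0.05) were higher in the untagged IP and Rpl10a was not called (0.09 ± 0.05). This background varied between the library sets: the members' median within this fit was 0.06 in libraries 1 to 3 and -0.18 in libraries 4 to 6. The difference between sets passed the test for 8 members, all less enriched in libraries 4 to 6, against 2.86% of all genes.

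Many of these genes house small nucleolar RNAs in their introns. On the reference annotation 31 of the 89 members overlap a small RNA gene. These 31 had a median of 0.02 on untagged beads, with 8 higher and 9 lower, and the other 58 a median of -0.11, with 11 higher and 21 lower. In addition, 21 members overlap another protein-coding or long noncoding gene, Rpl23a, Rpl35, Rps25 and Rps2 among them, and their counts may hold reads of both, since whether strand was used in counting is not known here.

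With the bead background subtracted, nearly all ribosomal protein mRNAs were less well recovered from HA-Tnrc6a cells than from untagged cells. Recovery here means the log2 ratio of IP to input in tagged cells less the same ratio in untagged cells. Of the 89 members, 86 were lower, 2 were higher and 1, Rpl3l, was not called (-0.26 ± 0.27, adjusted p = 0.412), against 32.2% of all 19993 genes lower and 29.8% higher. The members' median was -0.85 log2 units, or 0.554 times, and that of all genes was -0.10. The large subunit genes had a median of -0.89 and the small subunit genes one of -0.83.

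The same order held without the subtraction. Setting each IP library against the mean input of its own genotype and set, the members' median in HA-Tnrc6a IPs lay between -1.06 and -0.58 log2 units (median -0.95) and that in untagged IPs between -0.19 and 0.22 (median -0.09). In this measure 84 members were below their input in all 6 HA-Tnrc6a IPs, compared with 32.7% of all genes, and 2 were above it in all 6, again beside 32.7% of all genes. In untagged IPs 18 members were below in all 6 libraries, beside 16.3% of all genes.

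Rpl12, which sits at the base of the stalk, was among the lowest. It had 1243 to 1649 CPM (median 1454) in HA-Tnrc6a inputs and 596 to 1305 CPM (median 866) in the IPs. In untagged cells it had 1272 to 1975 CPM (median 1507) in the inputs and 1370 to 2841 CPM (median 2046) in the IPs. Within each library set the HA-Tnrc6a IPs lay below all their inputs and the untagged IPs above all theirs, and the recovery was -1.08 ± 0.08 (SE, adjusted p = 2.28e-14, edgeR), or 0.472 times.

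Rps27l had a recovery of -1.19 ± 0.10 (adjusted p = 5.17e-12), but reached it mostly through the untagged beads. Against its own input it was between -0.77 and 0.46 log2 units in HA-Tnrc6a IPs (median -0.22), below the input in 4 of 6 libraries, and between 0.47 and 1.58 in untagged IPs (median 1.06). Rps25 also had a high untagged background and a recovery of -1.18 ± 0.08. Other low members were Rpl22l1 (-1.17 ± 0.09) and its parent Rpl22 (-1.10 ± 0.09), an RNA-binding protein of the large subunit. Both were also below their input in all 6 HA-Tnrc6a IPs. Rpl22, for example, lay between -1.06 and -0.28 log2 units against its input there.

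The stalk proteins, which bind the elongation factors, were lower throughout. Rplp0 had a recovery of -0.71 ± 0.09, Rplp1 one of -0.78 ± 0.11 and Rplp2 one of -1.06 ± 0.10. Rpsa, the small subunit protein also known as the laminin receptor precursor, had -0.70 ± 0.08. Rpl30, Rpl3 and Rpl29 lay nearest to 0 among the lower members, with recoveries of -0.22 ± 0.07, -0.28 ± 0.06 and -0.32 ± 0.06 (Rpl30 and Rpl29 were chosen for mention after their values were seen).

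Rpl3, which reaches towards the peptidyl transferase centre, was not below its input on the tagged beads in libraries 1 to 3. In libraries 1 to 3 its HA-Tnrc6a IPs held 1734 to 1820 CPM, all above the inputs at 1464 to 1523 CPM. In libraries 4 to 6 the IPs held 1296 to 1383 CPM and overlapped the inputs at 1304 to 1343 CPM. Its untagged IPs held 1713 to 2373 CPM (median 2000) against 1360 to 1695 CPM (median 1471) in untagged inputs. Its lower recovery thus came with a tagged IP at or above the input level and an untagged IP further above it.

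**Figure D2:**
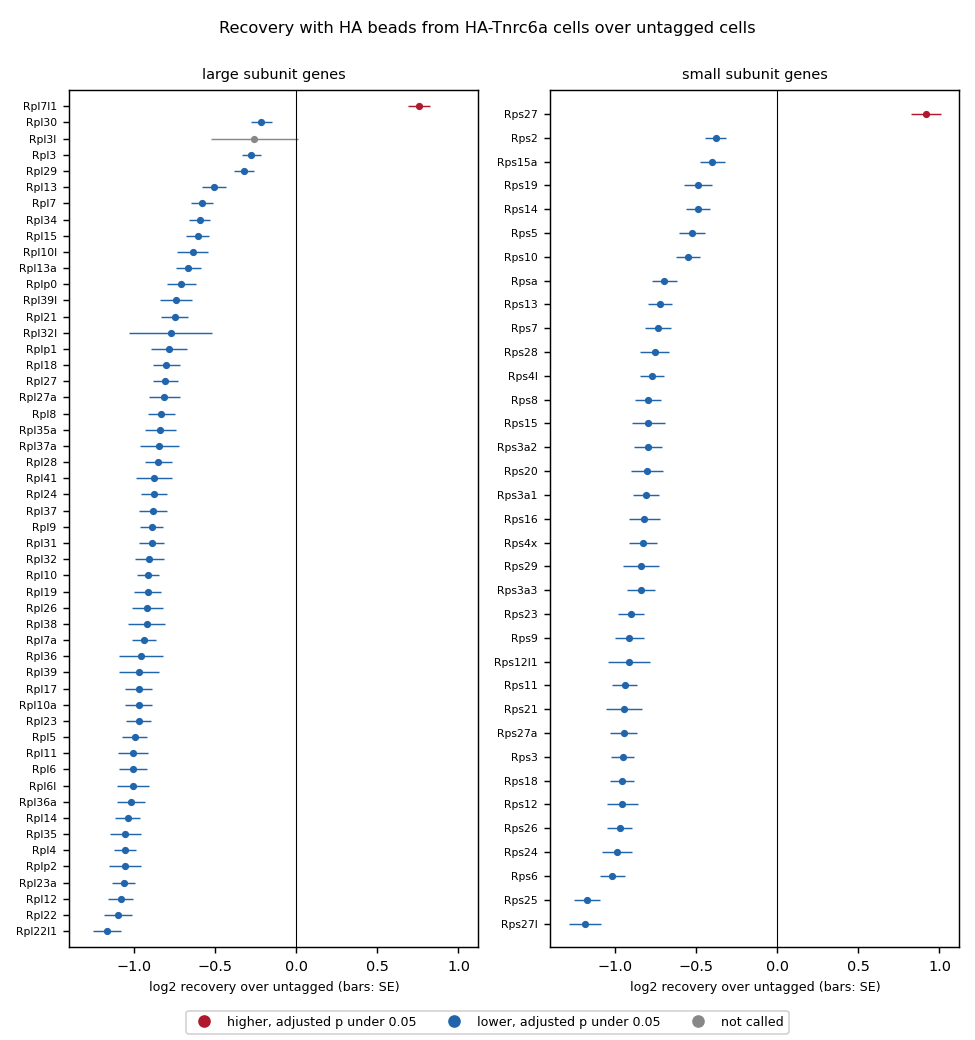
Recovery of the members from HA-Tnrc6a cells over untagged cells (horizontal axis, log2 units, bars are standard errors), large subunit genes at left and small subunit genes at right, with 87 of the 89 members drawn. Only Rpl7l1 (0.76) and Rps27 (0.92) lie above 0, and of all 89 members 86 are called lower.

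Rps27 and Rpl7l1 went the other way. Rps27, a zinc-finger protein of the small subunit also called metallopanstimulin, had 285 to 417 CPM (median 350) in HA-Tnrc6a inputs and 329 to 1227 CPM (median 629) in the IPs. Its recovery was 0.92 ± 0.09 (SE, adjusted p = 9.22e-11), or 1.89-fold. In libraries 1 to 3 the IPs held 877 to 1227 CPM against 389 to 417 CPM in the inputs. In libraries 4 to 6 they held 329 to 381 CPM against 285 to 311 CPM. The IPs were above the inputs in both sets, and the recovery was 1.33 in the first and 0.51 in the second, a difference of -0.82 that passed the test (adjusted p = 0.033). Rps27 was the 1 member for which the sets differed in this comparison, against 0.365% of all genes.

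Rpl7l1 is a paralogue of Rpl7 that is found in pre-ribosomal particles rather than in the finished subunit. It had 211 to 279 CPM (median 244) in HA-Tnrc6a inputs and 324 to 454 CPM (median 361) in the IPs, and 190 to 228 CPM (median 209) in untagged IPs. All 6 tagged IPs lay above all inputs and untagged IPs. Its recovery was 0.76 ± 0.07 (adjusted p = 5.49e-12), or 1.69-fold, with 0.71 in libraries 1 to 3 and 0.81 in libraries 4 to 6, while its parent Rpl7 had -0.58 ± 0.07. On the reference annotation Rps27 (chr3:90212667-90213648) and Rpl7l1 (chr17:46773907-46782656) overlap no other gene.

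**Figure D3:**
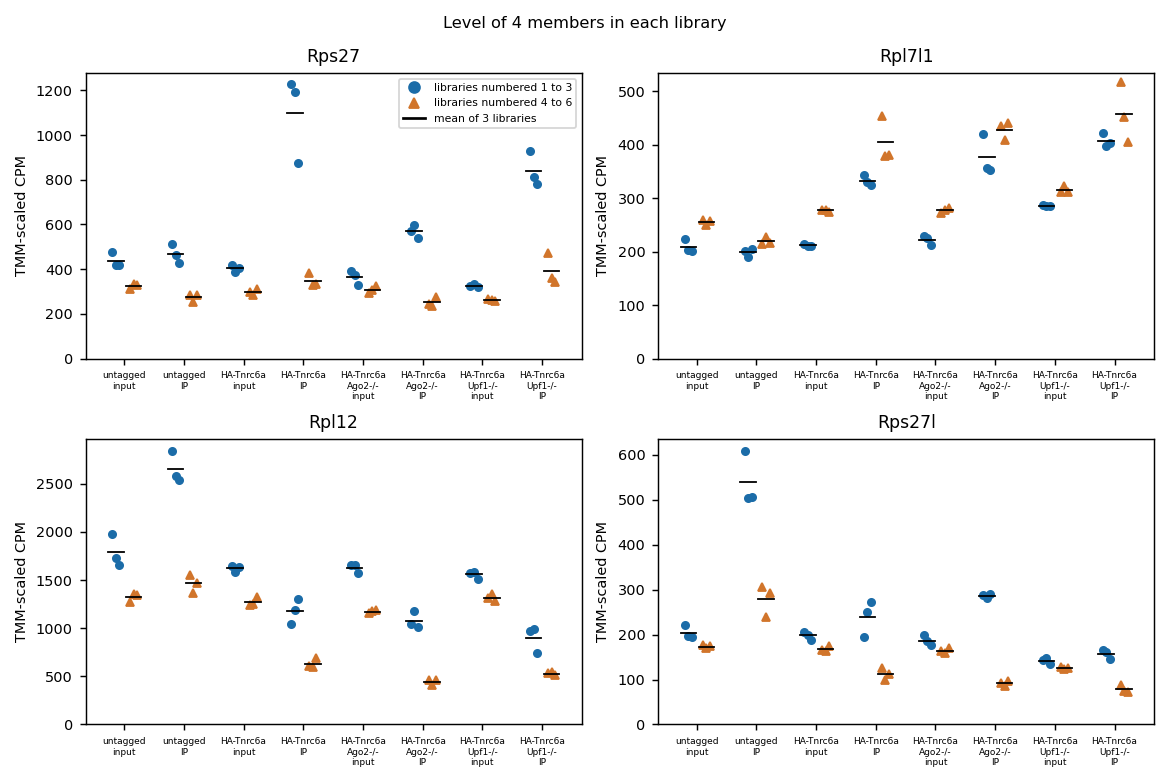
TMM-scaled CPM (vertical axes) of Rps27, Rpl7l1, Rpl12 and Rps27l in every library, by genotype and fraction, with means of 3 libraries as bars. In HA-Tnrc6a IPs Rpl7l1 is above input, and within each set Rps27 is above it and Rpl12 below it. Rps27l is furthest above input in untagged IPs. Its Ago2-/- IPs of libraries 1 to 3 also exceed their inputs (282 to 291 against 176 to 198 CPM).

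Genes of the same pathway were counted from lists written for this work. The 4 ribosomal proteins whose symbols fall outside the rule were lower as well, among them Fau (-1.07 ± 0.09), which is made as a fusion to a ubiquitin-like protein, Rpl36al (-1.02 ± 0.09) and the scaffold protein Rack1 (-0.72 ± 0.07). Of 21 other translation genes known or reported as TOP mRNAs or hosts, 16 were lower and 2 higher. Their median was -0.72 and their values ran from -1.32 to 0.57. The elongation factor Eef1a1 (-0.63 ± 0.08), Tpt1 (-0.82 ± 0.08) and the nucleolar chaperone Npm1 (-0.82 ± 0.07) were lower, and Eef1g (0.57 ± 0.07) and Eif4b (0.33 ± 0.07) were higher. Of 30 ribosome assembly genes, 24 were lower and 3 higher (median -0.54). Of 78 mitochondrial ribosomal protein genes, 52 were lower and 19 higher (median -0.49). No test of these lists against each other was made.

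The members' median length was 1726 bases, beside 3309 for all genes in the authors' length column, which for some members counts exons outside the mRNA. Across all genes recovery rose with length (Spearman's rho 0.29 over 19993 genes, which share the libraries), while across the 89 members rho was 0.116. The part of length in the members' low recovery was not tested.

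The other tagged genotypes gave similar counts over untagged cells. In Ago2-/- cells 86 members were lower and 2 higher, with a median of -1.12 (0.459 times), against 33.2% of all genes lower and 31.5% higher. Rpl35 (-1.51 ± 0.11) and Rpl23a (-1.50 ± 0.07) were among the lowest, followed by Rps25 (-1.42 ± 0.07), Rplp2 (-1.39 ± 0.11) and Rpl22l1 (-1.36 ± 0.11). Rpl7l1 was higher (0.85 ± 0.07), and Rps27 was called higher over both sets (0.27 ± 0.08, adjusted p = 0.00235), but only libraries 1 to 3 carried this, with 0.54 there and -0.01 in libraries 4 to 6.

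In cells labelled Upf1-/- 86 members were lower and 2 higher, with a median of -0.96 (0.515 times), against 31.8% of all genes in each direction. Rpl32l, a low-count copy of Rpl32, had the lowest value (-1.75 ± 0.31), and further low members were Rpl22l1 (-1.39 ± 0.09), Rps25 (-1.36 ± 0.08), Rpl12 (-1.34 ± 0.08) and Rpl23a (-1.32 ± 0.08). Rps27 was higher (1.12 ± 0.08, 2.17-fold), as was Rpl7l1 (0.75 ± 0.07), and Rpl30 was not called (-0.14 ± 0.07, adjusted p = 0.0804). Rpl3 was only just called (-0.14 ± 0.06). All comparisons over untagged cells share the untagged libraries.

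Set directly against HA-Tnrc6a cells, recovery from Ago2-/- cells was lower for many members, by a modest amount. Of the 89, 53 were lower, 1 was higher and 35 were not called, against 12.3% of all 19995 genes lower and 9.09% higher. The median difference was -0.28 log2 units (0.823 times), and -0.04 over all genes. The small subunit genes had 26 of 36 lower (median -0.30) and the large subunit genes 27 of 53 (median -0.27). The count varied with the libraries fitted. Libraries 4 to 6 alone gave 66 lower and none higher, against 9.64% and 7.84% of all genes. Libraries 1 to 3 alone gave 3 lower and 1 higher, against 5.29% and 3.39%. The medians were -0.33 and -0.21. In the fit of both sets, 83 members had a negative value in libraries 1 to 3 and 87 in libraries 4 to 6. Of all 19995 genes, 10694 and 10898 did. The difference between the sets passed the test for 0 members. Of all genes, 23 passed with a higher value in libraries 4 to 6 and 16 with a lower one. Without replicate number 5 in every group 18 members were called, beside 3048 of all genes. Without number 3 or number 6 the totals were 24 and 28, beside 3490 and 3076 of all genes. In each of these fits 1 member was higher and the others called were lower.

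Rps27 had the largest of these differences. Its Ago2-/- IPs held 541 to 599 CPM in libraries 1 to 3 and 237 to 275 CPM in libraries 4 to 6. The matching HA-Tnrc6a IPs held 877 to 1227 and 329 to 381 CPM, above the Ago2-/- IPs in both sets. The difference in recovery was -0.66 ± 0.09 (SE, adjusted p = 8.09e-07, edgeR), or 0.635 times.

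Rps2, a small subunit protein at the mRNA entry site, followed with -0.48 ± 0.07 (adjusted p = 5.74e-06). Its IPs held 1396 to 1617 and 870 to 1005 CPM in the 2 sets of Ago2-/- cells, below the 2064 to 2298 and 1415 to 1551 CPM of HA-Tnrc6a cells. Rpl35 (-0.46 ± 0.09), Rpl23a (-0.44 ± 0.08), Rps12l1 (-0.39 ± 0.14) and Rpl38 (-0.37 ± 0.10) were the next, and Rpl38 is known for the translation of Hox mRNAs. Rps12l1 is close to the threshold (adjusted p = 0.046).

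Rpl13 was the member with the opposite sign. Its Ago2-/- IPs held 1158 to 1285 CPM in libraries 1 to 3 against 856 to 1007 CPM in HA-Tnrc6a IPs. In libraries 4 to 6 they held 618 to 693 against 583 to 659 CPM, where the ranges overlapped. The difference in recovery was 0.31 ± 0.07 (adjusted p = 0.0018), although Rpl13 was lower than untagged in both genotypes (-0.51 ± 0.07 and -0.19 ± 0.08). The value in Ago2-/- cells rests on libraries 4 to 6, since libraries 1 to 3 alone gave 0.037. Rpl7l1 (0.09 ± 0.07) and Rps27l (0.04 ± 0.09) were not called. Of the lists, the 4 ribosomal proteins outside the rule were all lower, and 9 of 21 translation genes, 3 of 30 assembly genes and 16 of 78 mitochondrial genes were lower, with 6 mitochondrial genes higher.

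**Figure D4:**
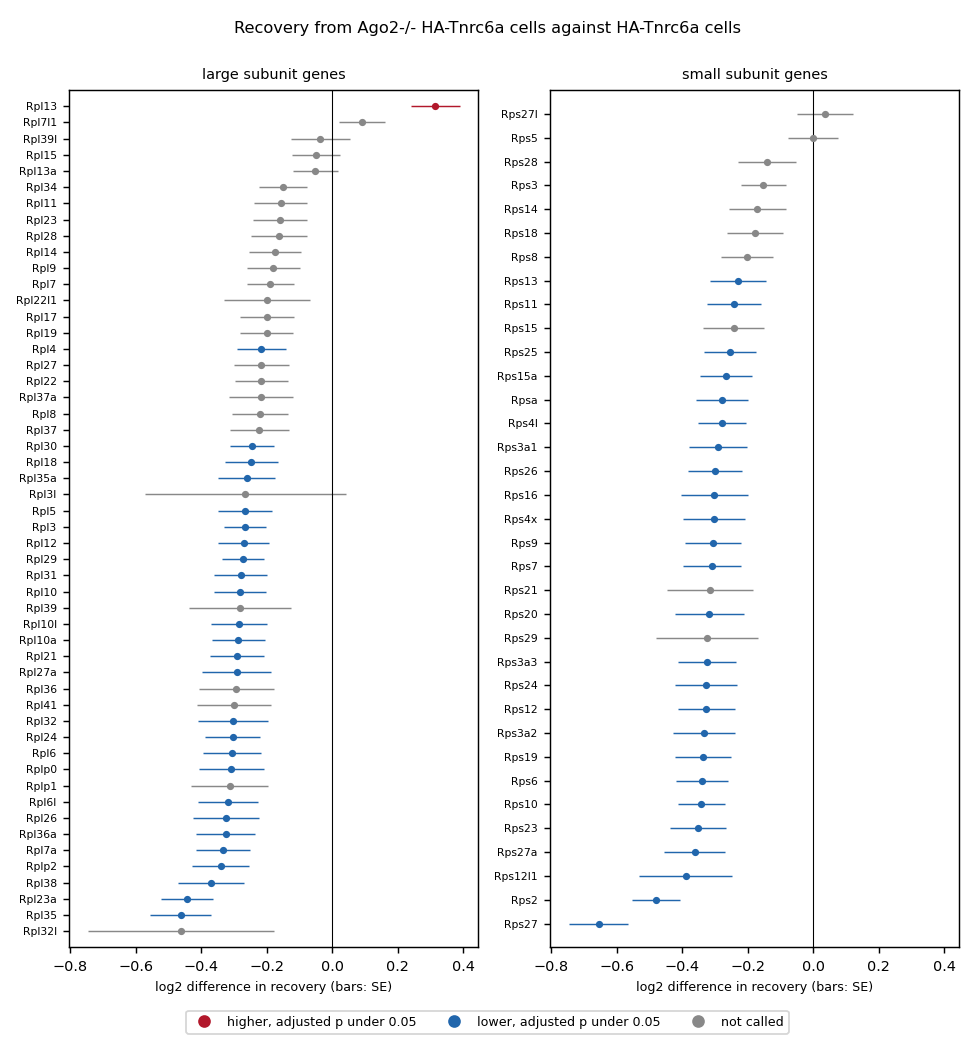
Difference in recovery between Ago2-/- and HA-Tnrc6a cells for 87 of the 89 members (horizontal axis, log2 units, bars are standard errors). Rps27 (-0.66) is lowest and Rpl13 (0.31) is the only member called higher.

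Recovery from the cells labelled Upf1-/- was not called different from that of HA-Tnrc6a cells for any member in edgeR, against 1.57% of all 19966 genes lower and 2.92% higher. At an unadjusted p under 0.05, 12 members were lower and 2 higher, where 16.6% of all genes passed in either direction. DESeq2 called 4 members lower and 1 higher, against 3.15% and 4.01% of the genes it gave an adjusted p. Taken over both directions, both counts are near the level of all genes, but most of the members that passed were lower. Of the 89 members 79 had a negative value, beside 9257 of all 19966 genes. Without replicate number 1 edgeR called 8 members, all of them lower. It called 625 of all genes there, 42.1% of them higher. With all libraries in edgeR the members' median was -0.10, beside 0.02 for all genes, and the lowest adjusted p of any member was 0.0722. Rpl32l (-0.98 ± 0.33), Rpl3l (-0.81 ± 0.32) and Rps12l1 (-0.37 ± 0.12) had the largest values and large errors, and Rpl3 (0.13 ± 0.06) and Rps27 (0.19 ± 0.09) were positive. When the IPs were compared without their inputs, 79 members were lower and 1 was higher, against 23.6% and 23.2% of all genes. The median was -0.44, and the inputs of these cells were themselves lower in these mRNAs.

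**Figure D5:**
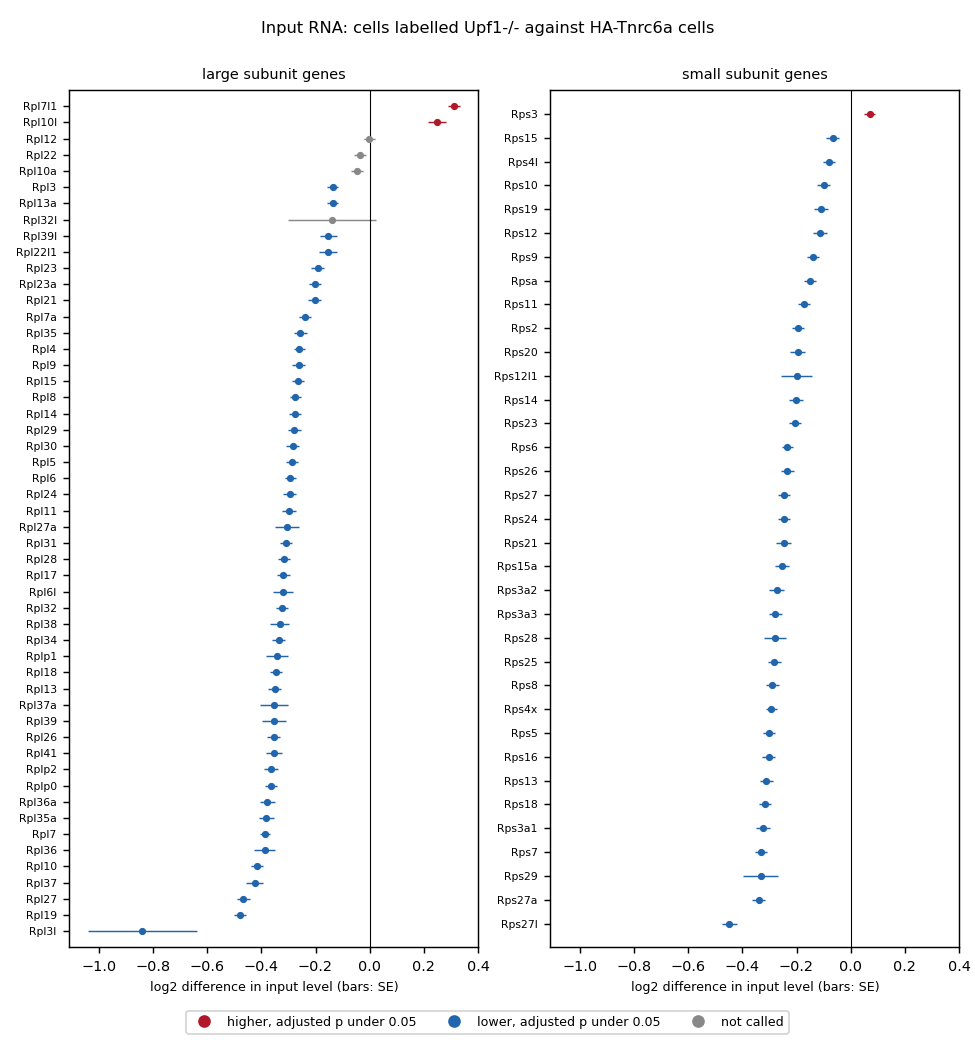
Difference in input level between cells labelled Upf1-/- and HA-Tnrc6a cells for 87 of the 89 members (horizontal axis, log2 units, bars are standard errors). Rpl7l1, Rpl10l and Rps3 are called higher, and of all 89 members 82 are lower.

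In the inputs, the cells labelled Upf1-/- had less of nearly every ribosomal protein mRNA. Compared with HA-Tnrc6a inputs, 82 members were lower, 3 higher and 4 not called, against 29% of all 19444 genes lower and 29.5% higher. The median was -0.28 log2 units, or 0.824 times, beside -0.02 for all genes. The large subunit genes had a median of -0.30 and the small subunit genes one of -0.25. In bulk RNA, less RNA per cell and fewer cells of a kind cannot be told apart, and the summed level of the embryonic stem cell markers was 6400 to 7113 CPM here and 6911 to 7500 CPM in HA-Tnrc6a inputs. That of the 10 markers of other cells was 42.0 to 90.6 CPM here and 54.3 to 66.5 CPM there. The part of either in the result was not tested.

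Rpl19, a large subunit protein that bridges to the small subunit, shows the size. It had 646 to 751 CPM (median 695) in inputs labelled Upf1-/- and 861 to 1072 CPM (median 981) in HA-Tnrc6a inputs, with no overlap, and its difference was -0.48 ± 0.02 (SE, adjusted p = 2.9e-24). Rpl27 (-0.47 ± 0.02), Rps27l (-0.45 ± 0.03), Rpl37 (-0.42 ± 0.03) and Rpl10 (-0.42 ± 0.02), which joins the large subunit late in the cytoplasm, were similar. Rpl3l, a muscle form of Rpl3, had the lowest value (-0.84 ± 0.20) at only 0.57 to 1.33 CPM.

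The 3 members that were higher include 2 paralogues with parents that were lower. Rpl7l1 had 285 to 323 CPM (median 299) against 211 to 279 CPM (median 244), a difference of 0.31 ± 0.02 (adjusted p = 3.51e-17), while Rpl7 was at -0.39 ± 0.02. Rpl10l, an intronless testis form of Rpl10, was at 0.25 ± 0.03 and Rps3 at 0.07 ± 0.02. Of the members known for decay-coupled splicing, Rpl12 (-0.00 ± 0.02, adjusted p = 0.966) and Rpl10a (-0.05 ± 0.02, adjusted p = 0.0866) were not called and Rpl3 was lower (-0.14 ± 0.02). Rpl12 had 1286 to 1588 CPM against 1243 to 1649 CPM. Rpl22 (-0.04 ± 0.02) and Rpl32l (-0.14 ± 0.16) were the other uncalled members.

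From the lists, all 4 ribosomal proteins outside the rule were lower, with Rpl36al at -0.43 ± 0.03. Of the 21 translation genes 14 were lower and 6 higher, with values from -0.36 to 1.19. Among them Eef1g (-0.29 ± 0.02) and Pabpc1 (-0.34 ± 0.02) were lower and Eef2 (0.21 ± 0.02) was higher. Of the assembly genes 21 were lower and 4 higher (median -0.11), and of the mitochondrial genes 52 were lower and 15 higher (median -0.13).

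The other input comparisons showed few differences. Between HA-Tnrc6a and untagged inputs 13 members were lower and 3 higher, against 7.67% of all genes lower and 7.74% higher. Without replicate number 1 in every group 33 members were called, beside 3739 of all genes. Without number 4, 5 or 6 the totals were 8, 6 and 7, beside 1984, 1896 and 1948 of all genes. The fit with all libraries tested 19407 genes. Rps12 had 444 to 613 CPM (median 524) in HA-Tnrc6a inputs and 604 to 1052 CPM (median 715) in untagged inputs. Within each library set these did not overlap, and the difference was -0.51 ± 0.08 (adjusted p = 0.000911). Its near-identical copy Rps12l1 had -0.53 ± 0.06, and reads of the pair may be shared. Rpl5 (-0.14 ± 0.04), which binds 5S RNA, Rpl22 and Rps3 (each -0.13 ± 0.04) were lower by less. Rpl10l (0.62 ± 0.04), Rpl39l (0.49 ± 0.04) and Rps4l (0.12 ± 0.03) were higher. Between Ago2-/- and HA-Tnrc6a inputs 4 members were lower and 4 higher, against 15.2% and 15.7% of all genes. Here 6 of the 9 markers of other cells that were tested were lower and 2 higher, and the sum of all 10 was 37.3 to 47.9 CPM against 54.3 to 66.5 CPM, with no overlap. The summed stem cell markers were 7215 to 8089 CPM against 6911 to 7500 CPM. The part of these markers in the results on Ago2-/- cells was not tested. Rpl39l was highest (0.18 ± 0.03), with Rps4l (0.11 ± 0.02) and Rps6 (0.09 ± 0.02), the S6 kinase substrate, next. Rplp0 (-0.13 ± 0.03), Rps2 (-0.11 ± 0.02), Rpl27 (-0.09 ± 0.02) and Rps16 (-0.09 ± 0.03) were lower.

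Paralogues and parents were set side by side, and of these Rps4l and Rpl6l are annotated as pseudogenes. In the recovery with HA-Tnrc6a, Rpl7l1 and Rps27 were higher while Rpl7 and Rps27l were lower. In the next pairs both members were lower. Rpl10l had -0.64 ± 0.10 and Rpl10 -0.92 ± 0.07, Rpl39l had -0.74 ± 0.10 and Rpl39 -0.97 ± 0.12, and Rps4l had -0.77 ± 0.08 and Rps4x -0.83 ± 0.08. Rpl6l and Rpl6 had -1.01 each, and Rpl32l had -0.78 ± 0.26 beside -0.91 ± 0.09 for Rpl32. Differences within a pair were not tested, and reads of near-identical copies, Rps3a1, Rps3a2 and Rps3a3 included, may have been divided between them.

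The library sets differed for some members in other comparisons too. In the recovery from Ago2-/- cells over untagged, 3 members differed between the sets, against 6.15% of all genes. In the inputs, 1 member differed for HA-Tnrc6a against untagged (3.4% of all genes), 5 for Ago2-/- against HA-Tnrc6a (5.94%) and 11 for the cells labelled Upf1-/- (11.6%). Rpl10l crossed over: its Ago2-/- inputs held 45.6 to 51.4 CPM in libraries 1 to 3, below the 65.9 to 70.9 CPM of HA-Tnrc6a inputs, and 65.6 to 69.2 CPM in libraries 4 to 6, above the 49.9 to 53.6 CPM of HA-Tnrc6a inputs.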

How the data were processed

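The authors deposited a table of raw read counts per gene and library, per the file headers, with 48 count columns, a gene length column and 48 columns headed RPKM that were not used. Per the submitters' processing notes, bcl2fastq 2.20 and STAR 2.7.3a were used with GRCm38/mm10. The counting tool and its strand setting are not given in the sources used here. Every gene of the table reaches 11 counts in some library. Column headers give genotype, fraction and a number from 1 to 6 and were matched to groups, not to single samples.

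The models ran in R 4.3.3 through edgeR 4.0.16 and limma 3.58.1. Each comparison was fitted on all genes with TMM scaling, filterByExpr (minimum count 10), 1 coefficient per group and library set, and the robust quasi-likelihood F-test of the contrast averaged over both sets. Adjusted p-values are Benjamini-Hochberg values over all genes, and calls use 0.05. A standard error is the log2 difference divided by the square root of F. All 89 members passed the filter in all 9 comparisons. IP-over-input values per library use log2 CPM with a prior count of 2. Another 138 rows with pseudogene symbols were left out.

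The text names, per comparison, the 6 called members with the largest difference in each direction among those with the same sign in both sets, the paralogues with their parents, Rpl3, Rpl10a, Rpl12, the stalk proteins and Rpsa. Some members this rule names are not reported here, though all 89 are counted. The members, lists and rules were chosen with earlier results of these data known. The fit was tested on simulated data with the same dispersion for every gene. For HA-Tnrc6a over untagged it recovered 88 of 100 changes of 1 log2 unit and 19 of 100 of 0.5. For the inputs labelled Upf1-/- it recovered 100 of 100 and 56 of 100. Unchanged genes called numbered 2 and 7. In the simulation, changes of 0.5 in recovery were thus mostly missed. Its dispersion was set in advance and not estimated from these counts, so these shares do not give the power for the members. In the data, the recovery of Ago2-/- against HA-Tnrc6a cells, a contrast of the same form, had 53 members lower. Their group's median was -0.28, and 12.3% of all genes were lower. Alternatives were RLE size factors, library totals, no low-count filter, DESeq2 1.42.0, a replicate block, all 48 libraries in one fit, each library set alone, each replicate number left out, IPs without inputs, and 2 single libraries left out. Molecular identifiers are not mentioned in the labels, so reads may repeat a molecule. Across replicates of a group and set the chi-square per degree of freedom was 1.96 or more, so no library repeats another of its group and set.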

Additional observations from a re-analysis of the deposited data

Results flagged for a closer look

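Of 144 groups of 6 libraries checked for a library far from the others, 1 stood out. Chance gives about 1 in 20 where a group has 1 level, but these groups join library sets whose levels can differ, which widens the range, so this check can miss a library. Rps3 reached 1475 CPM in the untagged input numbered 1, with 1276 CPM in the next library, a gap of 0.805 of the range.

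The following differences between the library sets (libraries 4 to 6 less libraries 1 to 3, log2 units) passed the interaction test in edgeR among the named members. On untagged beads Rps27l differed by -0.72 (1.40 and 0.68 in the sets), Rps25 by -0.49 and Rpl12 by -0.43. These 3 were all above input in both sets, by less in libraries 4 to 6. In the recovery from HA-Tnrc6a cells Rps27 differed by -0.82. In the recovery from Ago2-/- cells over untagged, Rpl22l1 differed by -0.74, Rps27l by -0.72 and Rps27 by -0.55.

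In the inputs, Rpl39l differed by 0.42 for HA-Tnrc6a against untagged. For Ago2-/- against HA-Tnrc6a, Rpl10l differed by 0.87 (-0.49 and 0.38 in the sets, adjusted p = 9.28e-13), Rpl39l by 0.29, Rps3 by -0.21 and Rpl6 by -0.14. Rpl10l, Rps3 and Rpl6 had opposite signs in the sets. For the cells labelled Upf1-/-, Rpl10l differed by -0.29, Rpl7l1 by -0.22, Rpl39l by -0.19, Rps2 by 0.21, Rps27 by 0.16, Rpl22 by 0.15, Rpl12 by 0.13 and Rpl19 by 0.13. Of these, Rpl12 and Rpl22 had opposite signs in the sets. The libraries of the sets differ in total count and in the members' share, and the part of either in these differences was not tested.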

How the results depend on the processing

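In the recoveries over untagged cells 1 or 2 members were higher and 81 to 87 lower under every alternative run. Of all genes, 8932 to 14700 were called there, 36.4 to 56.8% of them higher. In the inputs labelled Upf1-/- 1 to 3 members were higher and 74 to 83 lower. Of all genes, 8571 to 11562 were called there, 48.7 to 57.5% of them higher. Library totals in place of TMM moved the median of all genes by over 0.1: on untagged beads it went from -0.03 to -0.20 and the members' median to -0.25, and for HA-Tnrc6a and the cells labelled Upf1-/- over untagged the members' medians became -1.01 and -1.22. The members' median less that of all genes was -0.76 with TMM and -0.75 with library totals for HA-Tnrc6a over untagged. Higher calls among all genes called went from 50.3 to 20.9 percent on untagged beads, from 50 to 36.4 for the cells labelled Upf1-/- over untagged, and from 65.1 to 22.4 for these against HA-Tnrc6a (52.8 with RLE).

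The fits with all libraries of a comparison tested 19299 to 19995 genes. Fits of fewer libraries tested other numbers. For Ago2-/- against HA-Tnrc6a recovery these were 18707 genes with libraries 1 to 3 and 19810 with libraries 4 to 6. Libraries 1 to 3 alone called 21 members on untagged beads (median 0.066), beside 1972 of all genes. They called 4 for Ago2-/- against HA-Tnrc6a (1623 of all genes) and 4 between HA-Tnrc6a and untagged inputs (652 of all genes). Libraries 4 to 6 alone called 26 in the latter, 5 higher and 21 lower (4193 of all genes, 48.4% of them higher). They called 14 for Ago2-/- inputs, 4 higher and 10 lower (5270 of all genes, 53.2% of them higher). They gave a median of -1.11 for the cells labelled Upf1-/- over untagged. IPs without inputs gave -1.39 there. Leaving out replicate numbers gave 18 to 64 calls for Ago2-/- against HA-Tnrc6a (median -0.32 to -0.22), beside 3048 to 4091 of all genes. It gave 6 to 33 for HA-Tnrc6a inputs (1896 to 3739 of all genes). For the cells labelled Upf1-/- against HA-Tnrc6a it gave 0 to 8 (341 to 901 of all genes). The last had 4 calls with library totals (1002 of all genes), 3 without the filter (734), 5 with DESeq2 (1024) and 5 with all 48 libraries (704). It had 2 without the HA-Tnrc6a input numbered 3 (594 of all genes). With IPs alone it had 80 (8805 of all genes), and the members' median was -0.44. All 48 libraries gave 4 calls for HA-Tnrc6a inputs (1937 of all genes) and 2 for Ago2-/- inputs (3902 of all genes). Over all genes, same-numbered IPs and inputs showed little sign of pairing: 1 of 24 correlations was over 0.1. The replicate block gave 31 calls for HA-Tnrc6a inputs (3349 of all genes) and 23 for Ago2-/- inputs (6494 of all genes). It gave 2 for the cells labelled Upf1-/- against HA-Tnrc6a (1056 of all genes). On untagged beads the block gave 30 members higher and 42 lower (8011 of all genes called), where the main fit gave 19 and 30. The largest library, an Ago2-/- IP, was left out after the totals were seen and moved no count beyond 1.5 times.

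Signs reversed for Rpl7 (-0.11, library totals) and Rps4l (0.0083, libraries 1 to 3) on untagged beads, for Rpl13 (0.037, libraries 1 to 3) and Rps27 (-0.067, libraries 4 to 6) in Ago2-/- over untagged, and for Rpl10l (0.13, IPs alone) in the cells labelled Upf1-/- over untagged. They also reversed for Rps27l (-0.26, libraries 4 to 6) in Ago2-/- against HA-Tnrc6a, for Rpl30 (-0.26) and Rpl7l1 (0.25) with IPs alone in the cells labelled Upf1-/- against HA-Tnrc6a, and for Rpl10l (0.38) and Rps3 (-0.094) with libraries 4 to 6 in Ago2-/- inputs. The cause was not tested.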
